A study of Homo sapiens with 11 samples.

Results

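Messenger RNA levels of 8 regulators of cell death and inflammation were followed in a breast cancer cell line exposed to tumour necrosis factor (TNF), to the plant flavone apigenin, or to both. They were the inhibitor of apoptosis genes BIRC2, BIRC3 and XIAP, the cFLIP gene CFLAR, the death receptor caspase genes CASP8 and CASP10, and the inflammatory caspase genes CASP1 and CASP4. A gene was included if the array annotation gave a probe set with that symbol alone. This found 7 of the 8 among 22395 genes, each with 1 probe set, and BIRC3 is not analysed here. The members had been named with earlier results of these data known, but not by a measured threshold.

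The 11 arrays (GeneChip Human Gene 2.1 ST) held total RNA of MDA-MB-468, a triple-negative line from a pleural effusion with high EGFR. The groups were TNF at 40 ng/ml plus apigenin at 40 µM (3 arrays), TNF at 40 ng/ml (3 arrays), apigenin at 40 µM (2 arrays, replicates 1 and 2) and untreated control cells (3 arrays). Exposure lasted 24 h in every treated group, at doses the labels call sub-lethal, and the line is the only cell source. The labels do not say whether replicates were grown separately, so p-values reflect the spread among the arrays alone, and that spread may be technical. The design allows the TNF response to be read without and with apigenin.

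Death receptors such as the TNF receptor and FAS gather adaptor proteins that bring the initiator caspase-8, and in humans its relative caspase-10, together for activation. cFLIP resembles these caspases but lacks protease activity, and it competes for the same adaptor. The IAP proteins act at other steps: cIAP1, the product of BIRC2, is a ubiquitin ligase at the TNF receptor and restrains non-canonical NF-kB signalling, and XIAP binds active caspases directly. Caspase-1 matures interleukin 1 beta and interleukin 18 in inflammasomes, and caspase-4 senses bacterial lipopolysaccharide inside cells. TNF commonly raises NF-kB targets that protect cells from its own death signal, cFLIP among them.

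Promoter windows of RefSeq (GRCh38.p14, 250 bases before to 50 after a transcript start) were available for 5 of the 7 genes, 13 windows in all. CASP1 and CASP10 had none. 3 windows are printed: BIRC2 because it had the widest difference between groups, CFLAR because its window held the single NF-kB match among the 13, and CASP8 because its window held the single interferon element match. Capitals mark every motif match on either strand, for the kB consensus, the interferon response element (GAAA, any 2 bases, GAAA) and the aryl hydrocarbon receptor core GCGTG.
BIRC2: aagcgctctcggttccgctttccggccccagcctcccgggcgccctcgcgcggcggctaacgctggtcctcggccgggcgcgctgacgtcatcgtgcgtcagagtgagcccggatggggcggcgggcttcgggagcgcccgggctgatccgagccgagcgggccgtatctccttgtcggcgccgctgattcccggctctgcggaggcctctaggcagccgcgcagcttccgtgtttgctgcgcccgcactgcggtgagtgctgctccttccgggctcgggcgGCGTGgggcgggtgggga
CFLAR: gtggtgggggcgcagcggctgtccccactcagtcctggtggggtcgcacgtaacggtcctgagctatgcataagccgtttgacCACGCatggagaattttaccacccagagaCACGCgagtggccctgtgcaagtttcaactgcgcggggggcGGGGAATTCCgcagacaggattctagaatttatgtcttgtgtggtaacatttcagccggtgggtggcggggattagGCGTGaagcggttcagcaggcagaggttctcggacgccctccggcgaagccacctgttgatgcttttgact
CASP8: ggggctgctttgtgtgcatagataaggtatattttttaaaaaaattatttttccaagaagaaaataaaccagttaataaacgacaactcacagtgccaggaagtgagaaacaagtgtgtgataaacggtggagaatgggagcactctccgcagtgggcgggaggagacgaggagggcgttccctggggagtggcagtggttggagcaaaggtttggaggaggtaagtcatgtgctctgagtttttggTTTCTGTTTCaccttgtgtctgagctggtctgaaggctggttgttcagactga

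The BIRC2 window lies at chr11:102347124-102347423 on the plus strand, and its capitals are an aryl hydrocarbon receptor core downstream of the start. The other BIRC2 window, which overlaps it, had no match to any of the 3 motifs. The CFLAR window lies at chr2:201118466-201118765 on the plus strand. Its kB match, GGGGAATTCC, spans positions -97 to -88 from the start, and its other capitals are 3 receptor cores, which do not overlap the kB match. The CASP8 window lies at chr2:201233213-201233512 on the plus strand, and its interferon element, read on the minus strand, spans the start from -3 to 7. Over all 35116 windows of the same length, 5.91% held a kB match, 3.57% an interferon element and 36.5% a receptor core, against 1, 1 and 5 of the 13 windows here. A match is a description of letters and not of a bound site.

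Values are the deposited log2 values. Genes with 2 or more arrays at 2.53 or higher, the median over probe sets of their mean, were tested with limma over all 11 arrays, which left 15865 genes and the 7 members found. A gene was called at an adjusted p under 0.05 (Benjamini-Hochberg over all genes tested). Levels of different genes are not compared, since each probe set has its own brightness. Array apigenin 1 stood apart in its distribution: its median over tested genes was 3.89, while apigenin 2 had 4.16 and the control arrays 4.11 to 4.3. The median gene shifted by -0.177 where apigenin was set against control and by 0.162 where the combined treatment was set against apigenin. It shifted by 0.226 in the interaction, and by -0.043 to 0.015 elsewhere. TNFAIP3, the gene of the NF-kB inhibitor A20, rose by 3.67 ± 0.19 (SE) with TNF plus apigenin and by 3.39 ± 0.19 with TNF, both against control (limma adjusted p = 7.15e-08 and 1.1e-07). The aryl hydrocarbon receptor targets CYP1A1 and CYP1B1, listed as checks of apigenin, rose with apigenin alone by 1.73 ± 0.25 and 0.97 ± 0.18 (limma adjusted p = 0.00236 and 0.0098). They were not called in TNF plus apigenin against control (0.27 ± 0.23 and 0.08 ± 0.16, limma adjusted p = 0.63 and 0.869). CYP1A1 averaged 2.9 ± 0.32 with TNF plus apigenin (SD, n = 3), 2.91 ± 0.3 with TNF (n = 3), 4.36 ± 0.35 with apigenin (n = 2) and 2.63 ± 0.27 in control (n = 3). Both genes were lower in TNF plus apigenin than in apigenin, by -1.46 ± 0.25 and -0.89 ± 0.18 (limma adjusted p = 0.0146 and 0.0419), while the interaction was not called for either (limma adjusted p = 0.137 and 0.381). These genes therefore do not check the presence of apigenin in the combined group. All 4 of these calls were lost without apigenin 1, which leaves a single apigenin array. The differences were then 1.48 and 0.96 against control, and -1.21 and -0.88 for TNF plus apigenin against apigenin. Over all alternative fits, the call against control was lost in 2 of 19 for CYP1A1 and 3 of 20 for CYP1B1. The call of TNF plus apigenin against apigenin was lost in 5 of 19 for CYP1A1 and 13 of 20 for CYP1B1. All 6 epithelial markers lay above 2.53 on every array, and KRT19, one of them, fell by 0.82 with TNF plus apigenin against control (limma adjusted p = 0.0133).

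None of the 7 members was called in any of the 5 group comparisons or in the interaction. Limma called 3.66% of all tested genes when apigenin was set against control and 0.7% when TNF was. The combined treatment gave 2.82% over control, 1.07% over TNF and 0.574% over apigenin, and the interaction gave 0.0252%. The nearest to a call were BIRC2 in TNF plus apigenin against apigenin (adjusted p = 0.0545), CASP10 in apigenin against control (adjusted p = 0.0656), BIRC2 in TNF plus apigenin against control (adjusted p = 0.0793) and CFLAR in apigenin against control (adjusted p = 0.101), all by limma. A missed threshold does not show that a level stayed the same, so each difference is given with its 95% interval. Some splits described below pool arrays of several groups. The share of all genes that split in the same way was not counted for these.

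BIRC2 was highest where TNF was present. Its log2 values were 7.14, 7.25 and 6.75 with TNF plus apigenin, 6.91, 6.9 and 6.66 with TNF, 5.85 and 6.16 with apigenin, and 6.62, 6 and 6.4 in control. Every array with TNF lay above every array without it, while the arrays of both TNF groups overlapped each other, as did those of apigenin and control. The share of all genes with this split was not counted. Between TNF and control alone, 4.62% of all genes lay higher without overlap. The mean was 7.05 ± 0.26 (SD, n = 3) with TNF plus apigenin and 6.01 ± 0.22 (SD, n = 2) with apigenin. That difference was 1.04 on the log2 scale or 2.05-fold (95% interval 0.56 to 1.52). Against control the difference was 0.71 with TNF plus apigenin, or 1.63-fold (interval 0.28 to 1.14), and 0.49 with TNF alone, or 1.4-fold (interval 0.06 to 0.92, limma adjusted p = 0.562). Adding apigenin to TNF gave a difference of 0.22 (interval -0.21 to 0.65, limma adjusted p = 0.781).

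The call of BIRC2 in TNF plus apigenin against apigenin depended on the fit. It passed in 6 of 20 alternative fits, with adjusted p from 0.0338 to 0.353 over all 20. It passed without control 2 (1.04, limma adjusted p = 0.036), without TNF plus apigenin 3 (1.19, limma adjusted p = 0.0338), and with quantile normalization at a smaller 0.76 (limma adjusted p = 0.0385). It also passed without apigenin 2 (1.2), which leaves only apigenin 1, the array that stood apart. Without apigenin 1 the difference was 0.88 and was not called. Both of these last fits hold a single apigenin array, assumed to vary like the other groups. Against control the same gene passed under quantile normalization (0.73, adjusted p = 0.00657) and with array weights (0.71, adjusted p = 0.0152), and not in the other 18 fits.

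XIAP was lower with apigenin alone. It had 4.03, 4.2 and 4.02 with TNF plus apigenin, 3.64, 4.13 and 4.29 with TNF, 3.17 and 3.7 with apigenin and 4.16, 3.8 and 4.05 in control. Both apigenin arrays lay below all control arrays, as in 26.9% of all genes, but TNF 1 also lay below apigenin 2. Apigenin differed from control by -0.57 (interval -1.05 to -0.08, limma adjusted p = 0.184) and TNF plus apigenin differed from apigenin by 0.65 (interval 0.16 to 1.13, limma adjusted p = 0.201). Without apigenin 1, the lower of the pair, these differences were -0.3 and 0.38. TNF differed from control by 0.02 (interval -0.42 to 0.45), which turned to between -0.12 and -0.04 without control 2, TNF 2 or TNF 3.

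**Figure D1:**
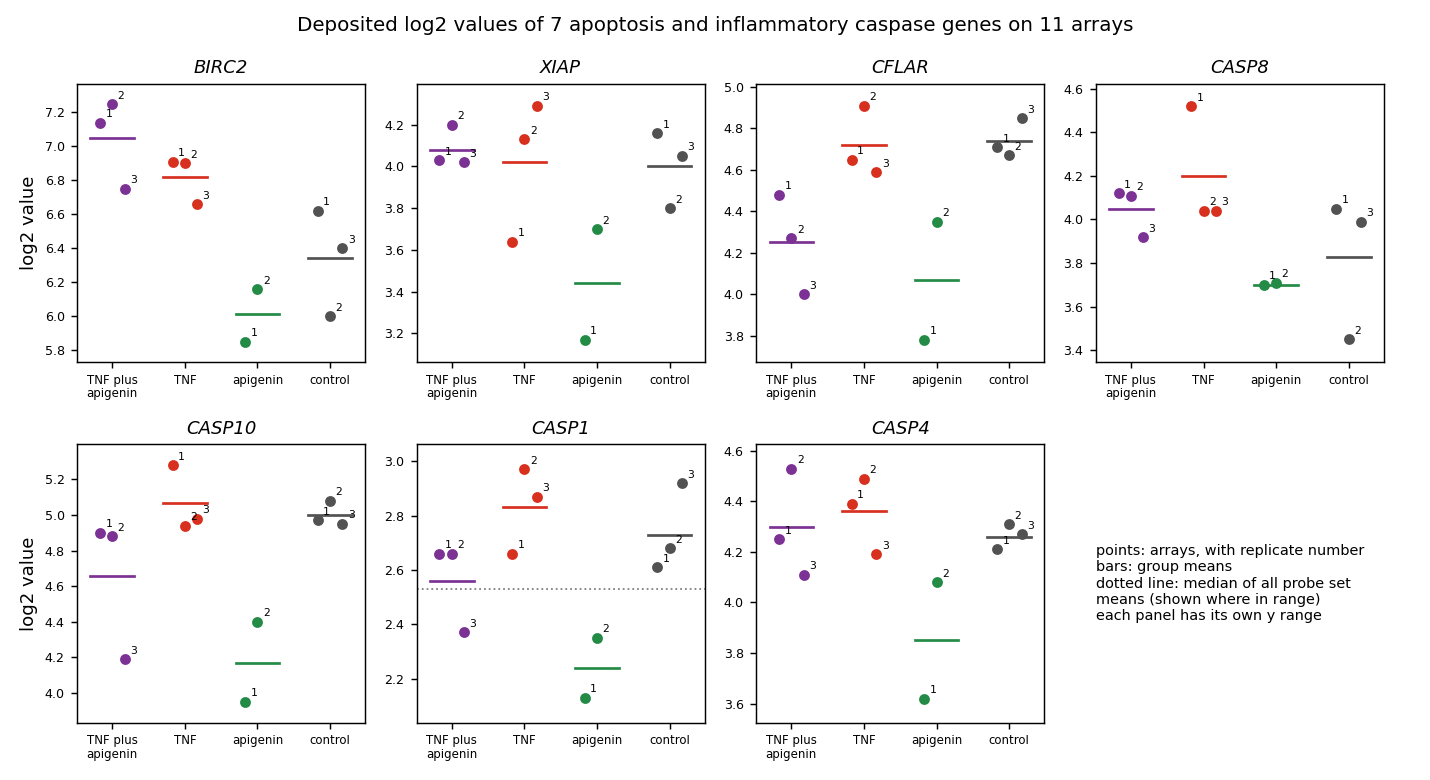
Deposited log2 values (y axis, a range of its own in each panel) of 7 genes on each array, with the groups along the x axis, points for arrays numbered by replicate and bars for group means. BIRC2 points with TNF lie above all points without TNF, and CFLAR and CASP10 points with apigenin lie below those of control, with CFLAR at 4.48 or less in both apigenin groups and at 4.59 or more in TNF and control.

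CFLAR separated by apigenin and not by TNF. Its values were 4.48, 4.27 and 4 with TNF plus apigenin, 4.65, 4.91 and 4.59 with TNF, 3.78 and 4.35 with apigenin, and 4.71, 4.67 and 4.85 in control. All 5 arrays with apigenin lay below all 6 without it. The share of all genes with this split was not counted. Between apigenin and control alone, 26.9% of all genes lay lower without overlap, and between TNF plus apigenin and TNF 7.05% did. Apigenin differed from control by -0.67, which is 62.7% of the control level (interval -1.13 to -0.21). TNF plus apigenin differed from TNF by -0.47, or 72.4% (interval -0.88 to -0.06, limma adjusted p = 0.363), and from control by -0.49 (interval -0.9 to -0.08, limma adjusted p = 0.22). TNF differed from control by -0.02 (interval -0.43 to 0.39, limma adjusted p = 0.997), a value of 0.02 under quantile normalization. TNF plus apigenin differed from apigenin by 0.18 (interval -0.28 to 0.64, limma adjusted p = 0.723), and by -0.01 under quantile normalization.

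For TNF plus apigenin against control, CFLAR was called only under quantile normalization (-0.52, limma adjusted p = 0.0362). For apigenin against control it was called only without apigenin 2 (-0.96), a fit that rests on apigenin 1 alone. Without apigenin 1 the apigenin difference was -0.39, also with a single apigenin array, and it was not called. The comparison of TNF plus apigenin with TNF does not use the apigenin arrays for its value, and its difference lay between -0.58 and -0.34 over 20 alternative fits. Its lowest adjusted p there was 0.0537.

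CASP10, which lies beside CFLAR, had the largest difference of any member between apigenin and control. Its values were 4.9, 4.88 and 4.19 with TNF plus apigenin, 5.28, 4.94 and 4.98 with TNF, 3.95 and 4.4 with apigenin, and 4.97, 5.08 and 4.95 in control. All 5 arrays with apigenin lay below all 6 without it, and TNF plus apigenin 1, at 4.9, came closest to them, with TNF 2 at 4.94. As for CFLAR, the share of all genes with this split was not counted. Apigenin differed from control by -0.83, or 56.3% of the control level (interval -1.33 to -0.33). TNF plus apigenin differed from TNF by -0.41 (interval -0.86 to 0.04, limma adjusted p = 0.499) and from apigenin by 0.48 (interval -0.02 to 0.99, limma adjusted p = 0.333). The call against control passed in 5 of 20 alternative fits, among them the one without TNF plus apigenin 3 (-0.83, limma adjusted p = 0.0327). Another was the fit without apigenin 2 (-1.05), which rests on apigenin 1 alone. Without apigenin 1 the difference was -0.6, also with a single apigenin array, and it was not called.

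CASP8, the other death receptor caspase, did not share that pattern. It had 4.12, 4.11 and 3.92 with TNF plus apigenin, 4.52, 4.04 and 4.04 with TNF, 3.7 and 3.71 with apigenin, and 4.05, 3.45 and 3.99 in control. Control 2 was the lowest array of all, and both apigenin arrays lay inside the control range. Apigenin differed from control by -0.13 (interval -0.6 to 0.34, limma adjusted p = 0.803) and by 0 under quantile normalization. TNF differed from control by 0.37 (interval -0.05 to 0.79, limma adjusted p = 0.754) and by 0.18 without control 2.

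Of the inflammatory caspases, CASP4 had 4.25, 4.53 and 4.11 with TNF plus apigenin, 4.39, 4.49 and 4.19 with TNF, 3.62 and 4.08 with apigenin, and 4.21, 4.31 and 4.27 in control. Both apigenin arrays lay below every other array. How many genes split in this way was not counted, and 26.9% of all genes lay lower in apigenin than in control without overlap. Apigenin differed from control by -0.41 (interval -0.85 to 0.02, limma adjusted p = 0.273), and by -0.18 without apigenin 1. TNF differed from control by 0.09 (interval -0.29 to 0.48, limma adjusted p = 0.977).

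CASP1 lay close to the background of the arrays, so no fold is given. It had 2.66, 2.66 and 2.37 with TNF plus apigenin, 2.66, 2.97 and 2.87 with TNF, 2.13 and 2.35 with apigenin, and 2.61, 2.68 and 2.92 in control. Both apigenin arrays were the lowest, and both lay under the array-wide median of 2.53. The share of all genes with this split was not counted, and 26.9% lay lower in apigenin than in control without overlap. Apigenin differed from control by -0.49 on the log2 scale (interval -0.9 to -0.08, limma adjusted p = 0.169) and TNF from control by 0.09 (interval -0.27 to 0.46, limma adjusted p = 0.974).

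**Figure D2:**
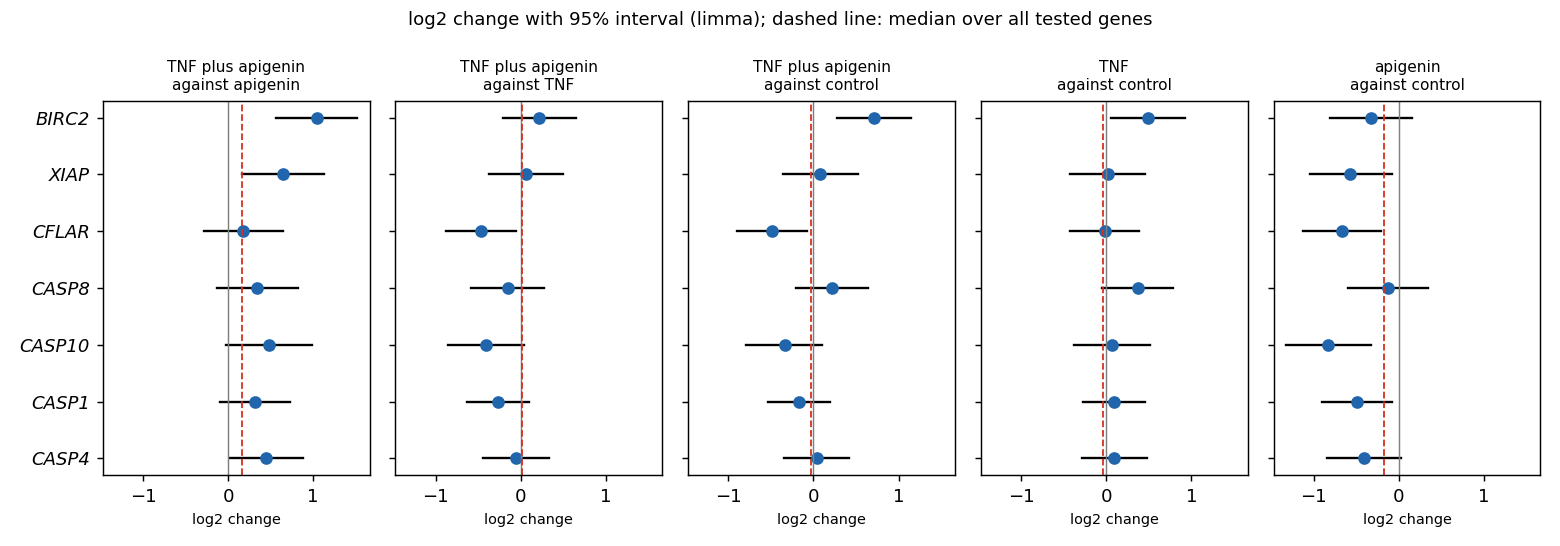
Log2 change (x axis) of each of 7 genes (rows) in 5 comparisons (panels), as limma estimates with 95% intervals, beside a dashed line at the median change of all tested genes. In apigenin against control the points run from -0.83 (CASP10) to -0.13 (CASP8) around a median shift of -0.177, and in TNF plus apigenin against apigenin BIRC2 stands at 1.04.

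At an unadjusted p under 0.05, 4 members were lower in apigenin than in control (17.5% of all genes), namely CASP10, CFLAR, CASP1 and XIAP. In TNF plus apigenin 3 were higher than in apigenin (14.1% of all genes), namely BIRC2, XIAP and CASP4. TNF alone gave 1, BIRC2 (7.41% of all genes), TNF plus apigenin against TNF gave 1, CFLAR (11.1%), TNF plus apigenin against control gave BIRC2 and CFLAR (15.9%) and the interaction gave 0 (8.16%).

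The median member differed by -0.49 between apigenin and control, or -0.32 relative to the median of all genes, and all 7 lay below zero. In 5 of the 7 members the arrays did not overlap there, and these were all lower. Of all 15865 genes, 5004 did not overlap there, and 4260 of these were lower (26.9% of all genes). The comparison of TNF plus apigenin with apigenin shares the apigenin arrays. There the median member differed by 0.45, or 0.29 relative to all genes, and 5 members lay above apigenin without overlap, as did 20.9% of all genes. In TNF plus apigenin, CFLAR and CASP10 lay below TNF without overlap (7.05% of all genes did) and below control (11.4%), and BIRC2 lay above control (8.69%). For TNF against control the median was 0.09, and BIRC2 was the single member without overlap (4.62% of all genes lay higher in this way). Without apigenin 1 the apigenin differences of all 7 kept their sign, between -0.6 for CASP10 and -0.12 for CASP8.

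The interaction, which is the TNF effect in apigenin-treated cells minus the TNF effect without apigenin, ran from -0.03 for CASP8 to 0.63 for XIAP (interval -0.02 to 1.28, limma adjusted p = 0.613). For BIRC2 it was 0.55 (interval -0.09 to 1.2, limma adjusted p = 0.623). For CFLAR it was 0.21 (interval -0.41 to 0.82, limma adjusted p = 0.802). The median over all genes was 0.226. Relative to that median the interaction was 0.4 for XIAP, 0.33 for BIRC2, -0.02 for CFLAR and -0.25 for CASP8. Without apigenin 1, and not relative to the median, it was 0.37 for XIAP, 0.4 for BIRC2 and -0.08 for CFLAR.

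In the genome CFLAR, CASP10 and CASP8 are consecutive among the tested genes of chromosome 2, and CASP4 and CASP1 are consecutive on chromosome 11. Neighbours just outside the first cluster were NDUFB3, a subunit of mitochondrial complex I, at -0.01 ± 0.19 (SE) for apigenin against control, and FLACC1 at -0.02 ± 0.22. Of these 5 genes, CFLAR and CASP10 had the largest differences, and neither was called. Beside CASP4 lay DCUN1D5 at -0.57 ± 0.2 (limma adjusted p = 0.126), and beyond CASP1 lay MSANTD4 at 0.29 ± 0.25. MSANTD4 rose with TNF plus apigenin against control by 0.97 ± 0.22 (limma adjusted p = 0.0309), where CASP1 differed by -0.17 ± 0.17. BIRC2 also lies on chromosome 11. TMEM123, beyond it, differed between TNF plus apigenin and apigenin by 0.83 ± 0.23 (limma adjusted p = 0.118), and YAP1, the transcriptional coactivator of the Hippo pathway, on the other side, by 0.26 ± 0.21. XIAP, on chromosome X, lies between THOC2 (apigenin against control -0.08 ± 0.22) and the cohesin gene STAG2 (-0.51 ± 0.22, limma adjusted p = 0.214).

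Among partners of cIAP1 and non-canonical NF-kB genes, TRAF3 and NFKB2 were called higher with TNF plus apigenin against control. This was 2 of the 7 tested of 9 listed, and the other 5 were not called against control. No gene of this list was called in TNF against control or in TNF plus apigenin against TNF. TRAF3, an adaptor that with cIAP1 keeps the kinase NIK low, had 5.41, 5.24 and 4.57 with TNF plus apigenin, 4.48, 5.32 and 4.97 with TNF, 3.32 and 3.64 with apigenin, and 4.26, 4.08 and 3.91 in control. Like BIRC2, every array with TNF lay above every array without it, a split not counted over all genes. Between TNF and control alone, 4.62% of all genes lay higher without overlap. TRAF3 averaged 5.08 with TNF plus apigenin and 4.92 with TNF. With TNF plus apigenin it rose by 1.6 ± 0.27 (SE) over apigenin or 3.03-fold (limma adjusted p = 0.0139), and by 0.99 ± 0.24 over control (limma adjusted p = 0.0424). The call against apigenin was lost in 6 of 20 alternative fits: without apigenin 1, TNF plus apigenin 1 or TNF plus apigenin 2, without control 2 and apigenin 1 together (limma adjusted p = 0.191), with array weights (0.0524) and in the fit of only the groups compared (0.0935). The call against control was lost in 8 of 20: without any control array, TNF 3, TNF plus apigenin 1 or TNF plus apigenin 2, without control 2 and apigenin 1 together (limma adjusted p = 0.0901), and with no filter on low values (0.0662).

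NFKB2, which encodes the p100 precursor of the non-canonical NF-kB subunit, had 6.06, 5.86 and 5.53 with TNF plus apigenin, 5.63, 5.9 and 5.34 with TNF, 4.69 and 5.06 with apigenin, and 4.8, 4.82 and 4.54 in control. It rose by 1.1 ± 0.2 with TNF plus apigenin over control or 2.14-fold (limma adjusted p = 0.00784), a call kept in all 20 alternative fits. With TNF alone it differed from control by 0.9 ± 0.2 (limma adjusted p = 0.0548).

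XAF1, an interferon-induced antagonist of XIAP, fell with apigenin alone against control. XAF1 was also lower with TNF plus apigenin (mean 4.71) than with TNF (mean 5.55), a difference that was not called. It had 4.95, 4.93 and 4.24 with TNF plus apigenin, 4.89, 6.01 and 5.73 with TNF, 3.65 and 3.96 with apigenin and 5.16, 5.19 and 5.06 in control. Both apigenin arrays lay below every other array, a split not counted over all genes. Of all genes, 26.9% lay lower in apigenin than in control without overlap. The difference of XAF1 from control was -1.33 ± 0.29 (SE, limma adjusted p = 0.0222). The call was lost in 5 of 20 alternative fits: without apigenin 1, control 1 or control 3, without control 2 and apigenin 1 together (-1.16, limma adjusted p = 0.236), and with array weights (-1.31, limma adjusted p = 0.0849). XAF1 was the single call among 4 IAP antagonists tested, and the other 3, with DIABLO and HTRA2 among them, were not called in any comparison.

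CASP14, the caspase of skin cornification, was bright on every array and fell with TNF plus apigenin against control. It had 10.46, 10.27 and 10.03 with TNF plus apigenin, 10.69, 10.73 and 10.61 with TNF, 10.52 and 10.59 with apigenin and 11.19, 10.9 and 11.05 in control. All control arrays lay above all treated ones, a split not counted over all genes. Between TNF plus apigenin and control alone, 11.4% of all genes lay lower without overlap. The difference between TNF plus apigenin and control was -0.8 ± 0.17 (limma adjusted p = 0.0173), a call lost without control 1, control 3, TNF plus apigenin 2 or TNF plus apigenin 3. It was the single call among the 4 other caspase genes tested.

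No gene of the remaining pathway lists was called in any of the 6 comparisons. Over all genes the median was -0.177 for apigenin against control and -0.025 for TNF plus apigenin against control. For the 5 other IAP genes, with the mitotic regulator BIRC5 (survivin) and the giant ligase BIRC6 among them, the median difference between apigenin and control was -0.4. For the 9 tested of 11 death receptor complex genes it was -0.17, and for TNF plus apigenin against control it was 0.23, with 4 higher and 1 lower at an unadjusted p under 0.05 (7.15% of all genes were higher and 8.79% lower). For the 9 tested of 17 inflammasome and pyroptosis genes the median for apigenin against control was -0.18, and 2 were higher with TNF than in control at an unadjusted p under 0.05, namely the adaptor gene PYCARD and IL18 (2.82% of all genes were higher). The same pair was lower with TNF plus apigenin than with TNF, by -0.81 and -0.64 (5.2% of all genes were lower at that threshold). Both comparisons use the TNF arrays, so the fall is not independent of the rise. PYCARD averaged 3.35 with TNF plus apigenin, 4.15 with TNF and 3.53 in control. IL18 averaged 6.11, 6.74 and 6.23 in the same order. For APAF1, CYCS and BID the median for apigenin against control was -0.14.

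**Figure D3:**
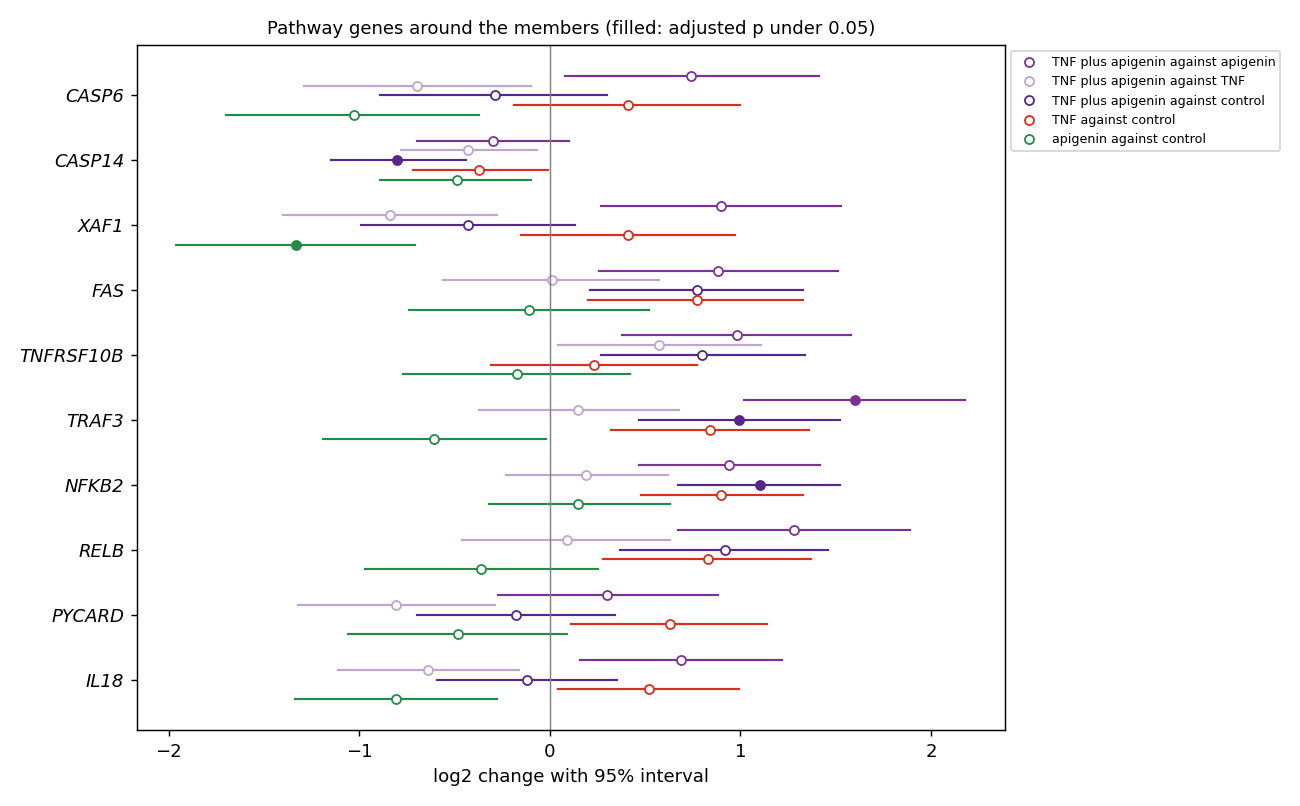
Log2 change with 95% interval (x axis, limma) of the 10 of 41 tested pathway genes with an unadjusted p under 0.01 in any comparison, a choice made after their values were seen, with a colour for each of 5 comparisons and filled points for an adjusted p under 0.05. Filled points stand at 1.6 and 0.99 for TRAF3, 1.1 for NFKB2, -0.8 for CASP14 and -1.33 for XAF1.

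Several markers of other cell types lay near background, while others lay above it or moved with treatment. CD68 had group means of 5.1 to 5.63 and CSF1R of 4.15 to 4.48, and neither was called in any comparison. COL1A1 and CD79A also lay above 2.53 on every array and were not called. The mean of the 3 endothelial markers with a probe set was 2.74 to 2.94 with TNF plus apigenin, 3.33 to 3.61 with TNF, 2.25 to 2.45 with apigenin and 3.09 to 3.32 in control. The receptor gene KDR fell with apigenin by 1.32 (limma adjusted p = 0.0071) and CDH5 by 1.03 (limma adjusted p = 0.0178), while VWF lay below 2.53 in every group mean. CDH5 rose with TNF by 0.92 against control (limma adjusted p = 0.0448) and fell with TNF plus apigenin by 1.25 against TNF (limma adjusted p = 0.00451). The mean of 6 macrophage markers was 3.18 to 3.49 with TNF plus apigenin, 3.39 to 3.51 with TNF, 3.22 to 3.3 with apigenin and 3.58 to 3.75 in control. The lipopolysaccharide receptor gene CD14 fell in every treated group against control, by 1.97 with TNF plus apigenin, 1.22 with TNF and 2.06 with apigenin (limma adjusted p = 0.000119, 0.00829 and 0.000354), whereas PTPRC, present on all leukocytes, had a mean of 1.54 with apigenin and 1.53 in control. The T and B cell markers averaged 2.23 to 2.46 and the fibroblast markers 2.01 to 2.37 over all arrays. Calls of cell type markers, KRT19 among them, and of the neighbour MSANTD4 were not checked in the alternative fits. The part of other cells in the results was not tested, and in bulk RNA fewer expressing cells and less RNA per cell cannot be told apart.

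**Figure D4:**
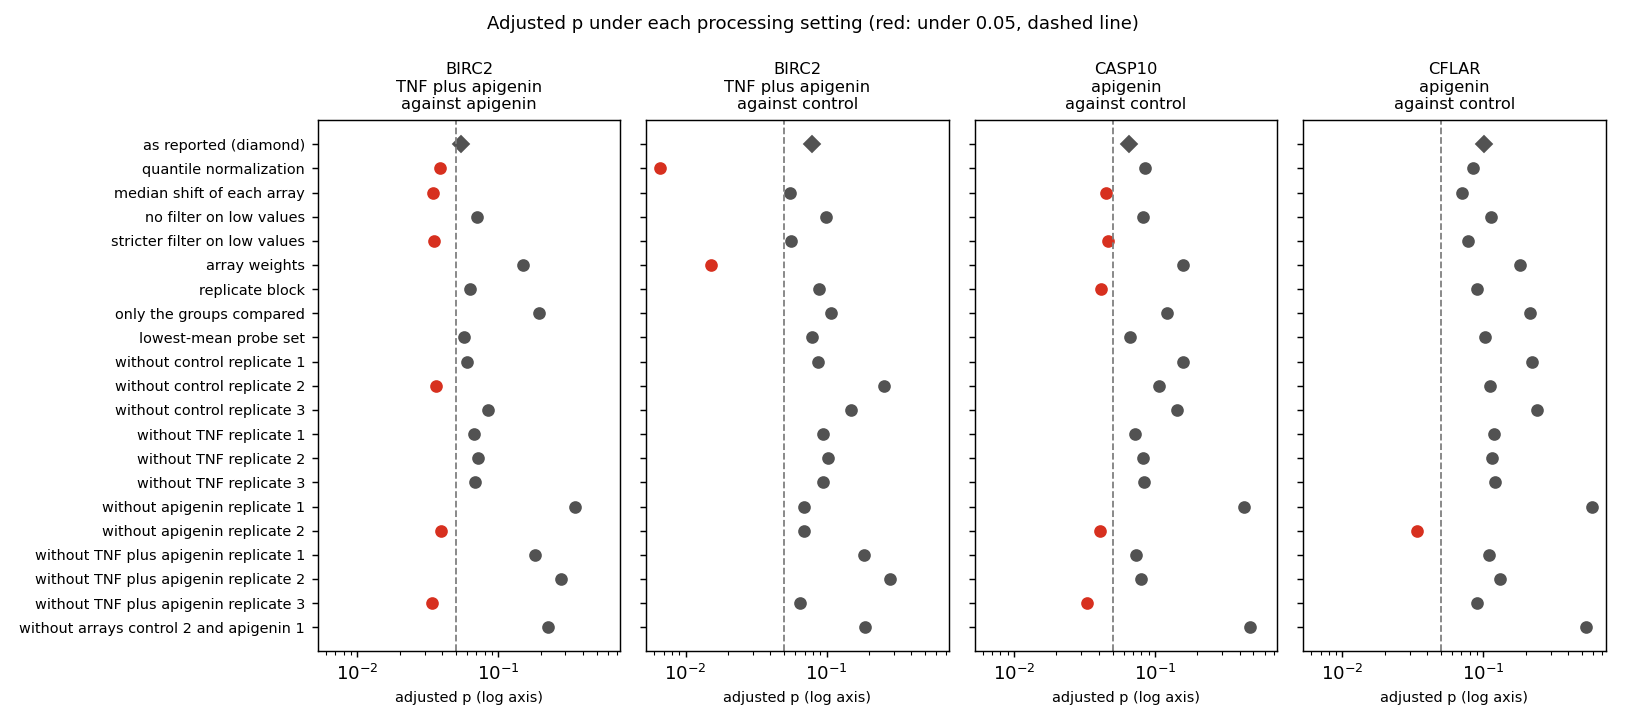
Adjusted p (x axis, log scale) of the 4 results nearest to a call under the reported fit (diamond) and each alternative (circles), with red points under the threshold of 0.05 (dashed line). BIRC2 against apigenin passes in 6 of 20 alternatives, BIRC2 against control in 2, CASP10 in 5 and CFLAR in 1. The fits without apigenin 1 or without apigenin 2 hold a single apigenin array.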

How the data were processed

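The authors deposited log2 values of 53617 probe sets on each of 11 arrays. The submitters' processing notes name Affymetrix Expression Console. Its summary algorithm and any genome build are not stated there, and the log2 scale was inferred from the range, 0.38 to 12.31. The values were used without rescaling. Probe sets with 1 distinct symbol (23871 of 25713 listed) were named through the array annotation, with symbols updated from RefSeq (GRCh38.p14) by gene number. The probe set with the highest mean stood for a gene with several. Group means were estimated jointly with limma 3.58.1 under R 4.3.3 (lmFit, then eBayes), leaving 7 residual degrees of freedom. Tests were two-sided and checked on simulated data. The number of arrays limits the precision.

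The members and gene lists were chosen with earlier results of these data known. By plan, named pathway genes were the called ones, at most 4 per list and comparison, and the nearest tested neighbours of each member. The text departs from this in part. PYCARD, IL18, BIRC5, BIRC6, DIABLO, HTRA2, APAF1, CYCS and BID are named though not called. The treatment checks NFKBIA and CXCL8 were called higher with TNF and with TNF plus apigenin, both against control, and are not described above. The lists held other IAP genes, other caspases, IAP antagonists, the death receptor complex, cIAP partners and non-canonical NF-kB, inflammasome and pyroptosis, apoptosome and BID, treatment checks and cell type markers. Alternatives were quantile normalization, a median shift of each array over all probe sets, no filter and a stricter filter, array weights, a replicate block, fits of only the groups compared, the lowest-mean probe set, and left-out arrays. Promoter motifs were searched by exact matching.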

Additional observations from a re-analysis of the deposited data

How the results depend on the processing

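The members' 827 alternative values kept direction and side of the threshold in 780 cases, passed the threshold in 15 and turned sign in 32. Counts of all genes called moved more. For TNF against control (111) they were 186 under quantile normalization, 221 with array weights, 70 without control 2 and apigenin 1, and 60 to 128 with 1 array left out. For apigenin against control (581, 35 higher and 546 lower) they were 207 with weights, 103 in a fit of only those groups, 119 without control 2 and apigenin 1, and 84 (without apigenin 1) to 1290 with 1 array left out, and quantile normalization gave 146 higher and 449 lower. For TNF plus apigenin against TNF (169) they were 510 under quantile normalization, 391 with weights (221 higher, 170 lower) and 85 to 197. Against control (447) they were 1233 under quantile normalization, 1197 with weights and 206 to 538 with 1 array left out. Against apigenin (91) they were 180 after the median shift, 32 with weights, 16 with only those groups, 26 without both arrays, and 18 to 598. For the interaction (4) they were 7 under quantile normalization, 10 with the stricter filter and 0 to 7. The cause was not tested.

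Members called numbered 1 for apigenin against control under the median shift, the stricter filter and the replicate block, and 0 to 2 with 1 array left out. For TNF plus apigenin against control they numbered 2 under quantile normalization and 1 with weights. Against apigenin they numbered 1 under quantile normalization, the median shift and the stricter filter, and 0 to 1 with 1 array left out. Pairing by replicate number was looked at in deviations from the group means. Of 15 same-numbered pairs from different groups, 4 correlated above 0.1. Their median was 0.02 and their highest 0.28, against -0.02 and 0.19 for the 30 other pairs. Among arrays of other groups, 6 of 11 arrays matched best with their own number. Whether the numbers pair the arrays was not settled. With the replicate block CASP10 passed for apigenin against control at -0.93 (limma adjusted p = 0.0414) and the interaction called 0 genes.

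Signs turned for small differences. Without control 2 and apigenin 1, XIAP was -0.08 for TNF and -0.02 for TNF plus apigenin against control, CFLAR was -0.1 against apigenin and -0.04 in the interaction, and CASP8 was 0.16 in the interaction, as with weights. Under quantile normalization CFLAR was 0.02 for TNF, -0.01 against apigenin and -0.02 in the interaction, CASP8 was 0 for apigenin, XIAP was -0.01 against TNF and CASP4 was -0.01 against control. CFLAR was 0 for TNF after the median shift, and CASP4 was 0.01 against TNF with weights. With 1 array left out, TNF against control ranged from -0.12 to 0.21 for XIAP, -0.12 to 0.04 for CFLAR and -0.04 to 0.13 for CASP10. TNF plus apigenin against TNF ranged from -0.13 to 0.2 for XIAP, -0.23 to 0 for CASP8 and -0.18 to 0.03 for CASP4. Against control it ranged from -0.02 to 0.16 for XIAP and -0.08 to 0.13 for CASP4, and against apigenin from -0.1 to 0.47 for CFLAR. The interaction ranged from -0.08 to 0.49 for CFLAR and -0.14 to 0.16 for CASP8. CASP1 did not pass the stricter filter and has no value there.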
